A study of Petunia x hybrida with 12 samples.

Results

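A set of 244 gene IDs, out of 35812 in the table, was examined in pistils of the white-flowered garden petunia Mitchell (a cultivar of Petunia x hybrida used in flower research). The members were chosen by their levels in the open-flower pistils of wild-type (WT) plants. Each stood at least 4 times higher in replicate 3 than in replicate 2 of WT day +1 and averaged 40 CPM or more across the 3 replicates of that group. CPM is a read count divided by the total count of its library and multiplied by 1e6. Polyadenylated RNA was sequenced from 4 groups of 3 libraries: tps1 pistils at day +1 and at day -1, and WT pistils at day +1 and at day -1, counted from flower opening and collected at 14:00. The name tps1 stands for plants in which PhTPS1, a terpene synthase gene, was targeted by RNA interference, and WT for plants without that construct. The labels give no plants with a control construct, do not say how many transgenic lines were used, and do not say whether replicates were separate plants. P-values therefore cover the spread of the sequenced libraries alone, part of which may be technical.

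The pistil is the female organ of the flower, made of the stigma that receives pollen, the style through which pollen tubes grow, and the ovary that holds the ovules. It becomes receptive to pollen around the time the flower opens. PhTPS1 makes sesquiterpene volatiles inside the petunia flower, some of which reach the pistil through the air in the flower bud, and KAI2, named in the title of the study, is a plant receptor best known for sensing karrikins from smoke. No gene names accompany the IDs in the table, so no product is given for any member, PhTPS1 itself was not looked up, and the tissue was not checked against its markers.

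The values that chose the members are described here without a test. WT day +1 replicate 3 stood at a median of 8.20 times replicate 2 over the members, and 149 of the 244 reached 8 times or more, 73 lay from 6 to 8 and 22 from 4 to 6. Of the 5402 IDs at a mean of 40 CPM or more in WT day +1, 19 had a ratio from 3 to 4 and 37 from 2 to 3, so few IDs lay near the limit. In the other direction, replicate 2 at least 4 times replicate 3, 0 IDs met the same limits. The 3 members just inside the limit had ratios of 4.05, 4.06 and 4.09, and the 3 IDs just outside it 3.96, 3.96 and 3.9994. By mean level, members just inside stood at 40.3, 41.1 and 41.1 CPM and IDs just outside at 39.83, 39.91 and 39.95 CPM.

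Members were prominent in open flowers, and most were nearly silent in the bud libraries other than WT day -1 replicate 2. In tps1 day +1 they took 7.78, 4.21 and 5.20% of all counts in replicates 1, 2 and 3, against 0.138, 0.133 and 0.136% in the tps1 day -1 replicates. In WT day +1 they took 2.60, 1.22 and 9.61%, against 0.142, 0.907 and 0.135% in WT day -1. WT day -1 replicate 2 therefore stood apart from the other 5 day -1 libraries, which lay between 0.133 and 0.142%. Over the members the median level was 177, 95.7 and 119 CPM in the tps1 day +1 replicates, and at 0.176, 0.134 and 0.115 CPM in the tps1 day -1 replicates. In WT the median was 55.8, 27.3 and 214 CPM at day +1, and at 0.095, 16.6 and 0.489 CPM at day -1. As these are whole-pistil samples, a change in the number of cells of some type and a change in RNA per cell cannot be told apart. Whether the RNA of the members was made in the cells of the pistil or came from another floral tissue was not tested, because no marker could be looked up, and the levels given here are levels in the libraries.

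**Figure D1:**
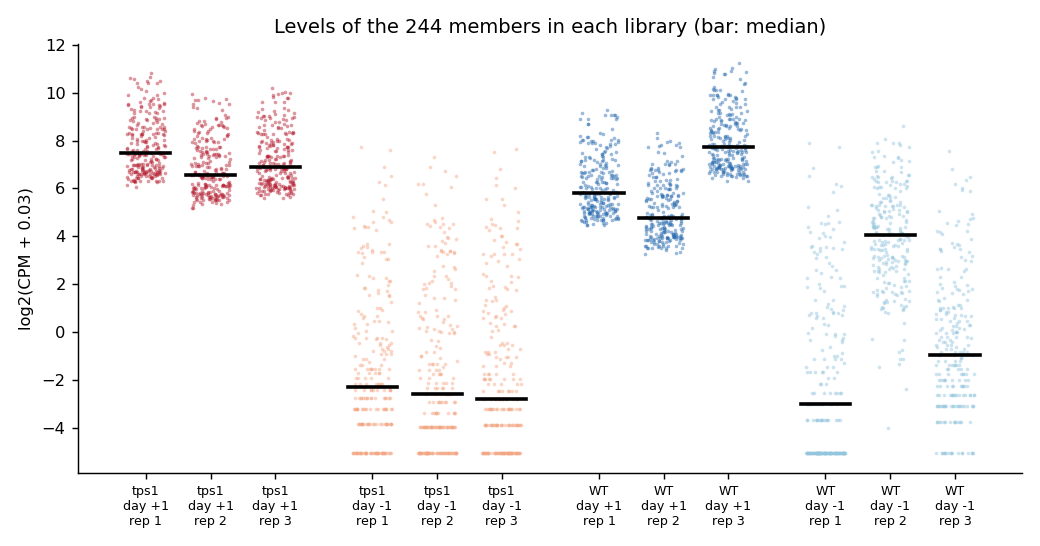
Level of each of the 244 members in each of the 12 libraries, as log2(CPM + 0.03), with the libraries on the horizontal axis and the black bar at the median. The medians of the 6 day +1 libraries range from 27.3 to 214 CPM, and among the day -1 libraries only WT replicate 2 has a median above 1 CPM (16.6 CPM).

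Within tps1 day +1, whose libraries did not choose the set, the mean level of the members ran from 50.7 to 1318 CPM, with a median of 130 CPM. By this mean, 12 members were among the 100 most abundant IDs and 105 among the 1000 most abundant, and the lowest member ranked 4338. At least 500 CPM was reached by 31 members, and 94 were under 100 CPM. No single ID dominated the sum: the most abundant member held 2.32, 2.31 and 2.27% of it in the 3 tps1 day +1 libraries, and the 10 most abundant held 18.9, 19.2 and 18.5%. At day -1 the small remaining sum was concentrated, with the 10 most abundant members of each library holding 65.6, 61.1 and 65.4% of it in tps1.

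The members kept nearly 1 common ratio between the tps1 open-flower libraries. Replicate 1 stood above replicate 2 for 244 of 244 members, at a median of 1.85 times, and the middle 50% of members spanned log2 ratios of 0.84 to 0.93. Replicate 3 stood above replicate 2 for 243 members, at a median of 1.25 times (middle 50% from 0.28 to 0.36 on the log2 scale). The other 5233 IDs at 40 CPM or more in tps1 day +1 had median ratios of 0.95 and 0.993. The order replicate 1, replicate 3, replicate 2 from high to low held for 243 of 244 members and for 11.0% of these other IDs. The exception, Peaxi162Scf00128g00626, stood at 128, 72.0 and 71.7 CPM in tps1 day +1 replicates 1, 2 and 3. The highest of the 3 tps1 day +1 values was a median of 1.85 times the lowest over the members, against 1.10 times over the other IDs, and at least 0.5 log2 units separated the highest and lowest values of 100% of members and 2.73% of the others. These ratios describe 3 libraries, and no test was made of them.

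**Figure D2:**
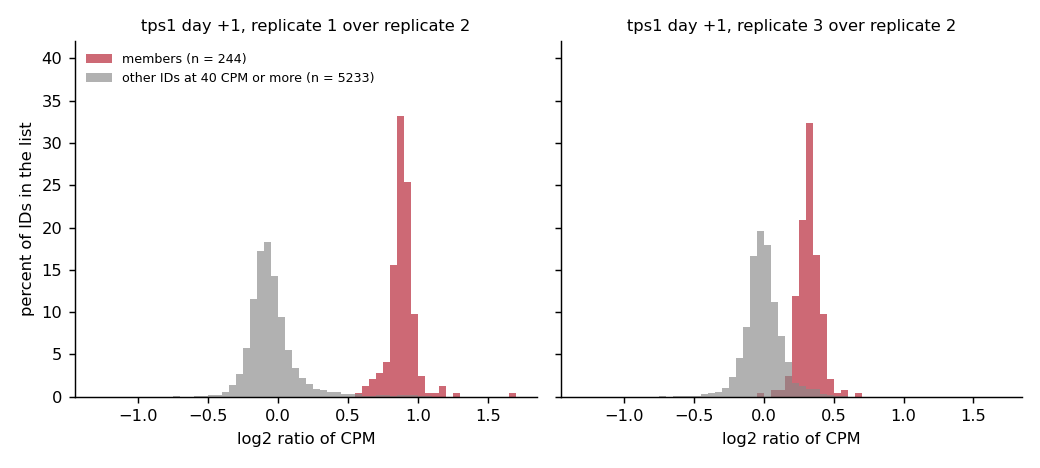
Distribution of the log2 ratio of CPM between tps1 day +1 replicates 1 and 2 (left) and replicates 3 and 2 (right), as percent of IDs in each list, for the 244 members (red) and the other 5233 IDs at 40 CPM or more in tps1 day +1 (grey). The members form a narrow peak at a median log2 ratio of 0.89 on the left and 0.32 on the right, and the other IDs lie at medians of -0.07 and -0.01.

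A few members departed from the common ratio. Peaxi162Scf00783g00135, singled out after its values were seen, had the widest ratio between tps1 day +1 replicates 1 and 2, with 356, 111 and 164 CPM in replicates 1, 2 and 3, against 0.039, 0 and 0.0768 CPM in the tps1 day -1 replicates. Its highest open-flower value was thus in tps1 replicate 1, and WT day +1 replicate 3 stood close below at 325 CPM. Among IDs at 40 CPM or more in tps1 day +1, few outside the set had the tps1 ratios of the members. Both tps1 ratios lay between the members' 5th and 95th percentiles for 204 of the 244 members and 55 of the other 5233 IDs (1.05%). Of these 55 IDs, 49 were under 40 CPM in the WT day +1 mean and 49 had a WT ratio of 4 or more, so most missed the set by level. Less abundant IDs were not counted here. With the mean limit of the rule lowered to 20 CPM, 371 IDs met it. Their median log2 ratio of highest to lowest tps1 day +1 value was 0.89, against 0.89 over the 244 members. The ratios were thus not particular to the set. The biological coefficient of variation, the replicate spread that edgeR estimates beyond counting noise, had a median of 26.5% over the members in the tps1 libraries, 12.7% over the other IDs at 40 CPM or more and 14.9% over all 20837 IDs tested.

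The change between days was tested in tps1, where no library had chosen the members. Of the 244 members, 241 rose at day +1 relative to day -1 and 0 fell (edgeR quasi-likelihood test fitted to the 6 tps1 libraries, Benjamini-Hochberg adjusted p under 0.05). Of all 20837 IDs tested, 32.1% rose and 32.5% fell, and of the other IDs at 40 CPM or more in tps1 day +1, 45.5% rose and 23.1% fell. All 244 passed the filter on low counts, but members near 0 at day -1 passed through their day +1 counts and so had to differ, which means that the count describes the set and supports nothing more. The 3 day +1 values did not overlap the 3 day -1 values and lay above them for 241 members and below them for 0, and of the 21239 IDs that passed the filter over all 12 libraries this was so for 29.8% upwards and 41.9% downwards. The median fitted log2 fold change was 10.75 over the members, 0.21 over the other abundant IDs and 0.00390 over all IDs tested. For IDs with hardly any counts at day -1 the fitted value is set in part by the prior count of edgeR. For 21 members 0 counts were found over the 3 tps1 day -1 libraries, and with a floor of 3 counts over the group (0.0368 CPM) they were at least 1529-fold to 7168-fold higher at day +1. With these 21 at their bounds the median log2 fold change was 10.61.

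**Figure D3:**
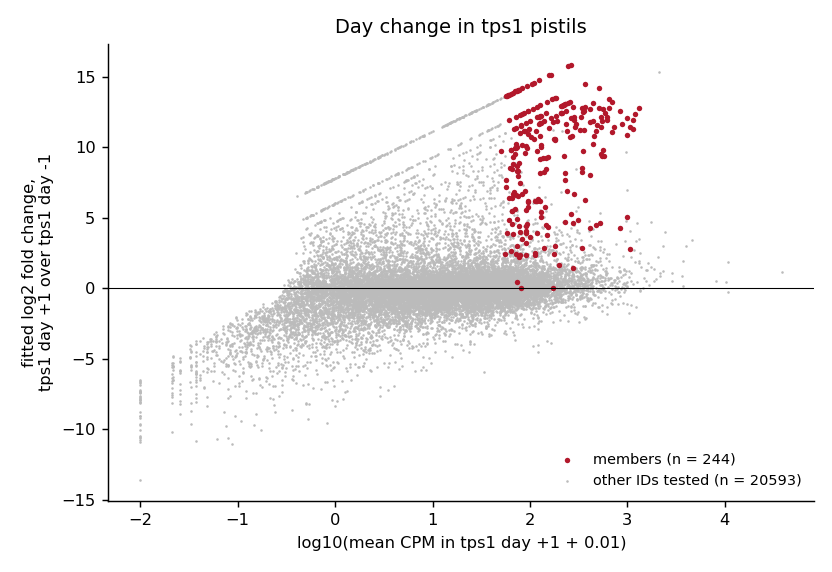
Fitted log2 fold change of tps1 day +1 over tps1 day -1 (vertical axis) against the mean level in tps1 day +1 as log10(CPM + 0.01) (horizontal axis), for the 244 members (red) and the other IDs tested (grey). Members fill the upper right, with a median log2 fold change of 10.75, and 3 of them lie near 0; the slanting stripes at the top are IDs with 0 or a few counts at day -1, whose fitted values depend on the prior count.

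The most abundant member in open tps1 flowers was Peaxi162Scf00042g02513, with 1801, 973 and 1179 CPM in tps1 day +1 replicates 1, 2 and 3, against 0.234, 0.168 and 0.192 CPM in the tps1 day -1 replicates. The groups were far apart, at 1318 ± 431 CPM against 0.198 ± 0.0335 CPM (SD, n = 3 each), with a log2 fold change of 12.82 ± 0.426 SE (edgeR adjusted p = 7.93e-06). With 6, 5 and 5 counts in the tps1 day -1 replicates, it passed the filter through its day +1 counts. It therefore had to differ, and the p-value only describes it. In WT the same ID stood at 622, 278 and 2384 CPM at day +1, and at 0.0475, 269 and 2.49 CPM at day -1. WT day -1 replicate 2 was thus nearly level with WT day +1 replicate 2 for this ID, while the other 2 WT bud libraries lay far lower.

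Next in abundance was Peaxi162Scf00347g00332, with 1634, 885 and 1041 CPM in tps1 day +1, against 0.507, 0.101 and 0.154 CPM in tps1 day -1. Its log2 fold change was 12.35 ± 0.614 SE (edgeR adjusted p = 2.02e-05). With 13, 3 and 4 counts in the tps1 day -1 replicates, it too passed the filter through day +1, and the same limit holds. In WT it stood at 562, 254 and 2121 CPM at day +1, and at 0.0475, 226 and 2.00 CPM at day -1. The libraries of both genotypes fell in the same order for both IDs.

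Members differed in how much RNA was already present in buds. By the mean over the 3 tps1 day -1 libraries, 177 members (72.5%) were under 1 CPM, 39 lay from 1 to 10 CPM and 28 stood at 10 CPM or more. These classes were drawn after the values were seen and carry no test of their own. The 177 had medians of 141 CPM in tps1 day +1 and 0.0688 CPM in tps1 day -1, and 177 of them rose in the fit above. The 39 had medians of 99.1 CPM in tps1 day +1 and 3.06 CPM in tps1 day -1, with a median log2 fold change of 5.42, and 39 rose. The 28 with the highest bud level had medians of 160 CPM in tps1 day +1 and 23.1 CPM in tps1 day -1, with a median log2 fold change of 2.70, and 25 rose. Of the other IDs at 40 CPM or more in tps1 day +1, 45.5% rose in the same fit. The classes were cut by the day -1 values of that fit, so these counts describe them and support nothing more.

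Classes of members with a higher level in tps1 buds had lower median ratios between open-flower libraries, though the classes overlapped. Between tps1 day +1 replicates 1 and 2, the median log2 ratio was 0.90 for the 177 members nearly silent in tps1 buds. It was 0.87 for the 39 in between and 0.81 for the 28 with the highest tps1 bud level. The lowest and highest log2 ratios were 0.77 and 1.68, 0.56 and 1.00, and 0.62 and 0.97 in these classes. The ratio of WT day +1 replicate 3 to replicate 2, which the rule used, had medians of 8.34, 7.30 and 5.73 in the same classes. Peaxi162Scf00069g00810, one of the most abundant members with RNA in buds and named after its values were seen, stood at 1439, 798 and 975 CPM in tps1 day +1, against 212, 120 and 186 CPM in tps1 day -1. It rose by a log2 fold change of 2.78 ± 0.32 SE (edgeR adjusted p = 0.000477).

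The 3 members that did not pass the day test in tps1 all had high bud levels. Peaxi162Scf00861g00321 stood at 221, 130 and 163 CPM in tps1 day +1 replicates 1, 2 and 3, against 194, 157 and 203 CPM in the tps1 day -1 replicates (log2 fold change 0.04 ± 0.221 SE, edgeR adjusted p = 0.888). In WT it stood at 92.1, 50.3 and 269.8 CPM at day +1, against 235, 161 and 189 CPM at day -1, so WT day +1 replicates 1 and 2 lay below all 3 bud libraries and replicate 3 above them. Peaxi162Scf00080g01518 stood at 103, 65.7 and 74.3 CPM in tps1 day +1, against 92.3, 92.5 and 86.4 CPM in tps1 day -1 (log2 fold change -0.0091 ± 0.181 SE, edgeR adjusted p = 0.968). Peaxi162Scf00665g00340 stood at 97.5, 54.6 and 68.0 CPM in tps1 day +1, against 71.1, 39.6 and 70.2 CPM in tps1 day -1 (log2 fold change 0.43 ± 0.305 SE, edgeR adjusted p = 0.252). For all 3 the day +1 and day -1 values overlapped in tps1. WT day +1 replicate 2 was below all 3 WT day -1 libraries for 6 of the 244 members.

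Before opening, tps1 was compared with WT in the 6 day -1 libraries, none of which entered the rule. Most members had too few counts there: 101 of 244 passed the filter, and 0 of these passed the test in either direction (edgeR quasi-likelihood test, lowest adjusted p = 1.00). Of all 19865 IDs tested, 0.0201% were higher and 0% lower in tps1. Unadjusted p-values under 0.05 were found for 28 of the 101 members, all 28 lower in tps1, and for 3.38% of all IDs tested. Of the 101, 67 stood at 1 CPM or more in tps1 day -1. The others could pass the filter in part through WT libraries in which they were high. The count of 28 therefore describes the members tested and supports nothing more. DESeq2 and limma-voom also called 0 members, and DESeq2 gave no adjusted p for 30 of the members tested. They put 14 and 1 of the 101 at an unadjusted p under 0.05. The share of all IDs at that threshold was not taken with these tools, so nothing is read from 14 and 1. At an adjusted p under 0.05, DESeq2 called 0.247% of all IDs higher and 0.166% lower in tps1, and limma-voom 0.0101% higher and 0% lower. The count of 28 moved with every library left out, as did the number of members tested. It was 4 of 140, 13 of 139 and 4 of 140 without tps1 day -1 replicates 1, 2 and 3. Without WT day -1 replicates 1, 2 and 3 it was 78 of 138, 3 of 100 and 47 of 104. The share of all IDs at an unadjusted p under 0.05 was not taken for these fits. Their counts are therefore not read as a result about the members. The median log2 fold change over the members tested was -1.11, and 0.00690 over all IDs.

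The difference in medians rested largely on WT day -1 replicate 2. Without that library the median over the 100 members tested was -0.08 and 3 had an unadjusted p under 0.05 (0 called by edgeR, with 0.00499% of all IDs called higher and 0% lower). All 3 tps1 day -1 values lay below all 3 WT day -1 values for 15 of 244 members and above them for 0, against 4.2 and 3.47% of the 21239 IDs. Leaving out WT day -1 replicate 2 gave 15 members below and 10 above, beside 7.84% of all 21239 IDs below and 5.65% above, so neither count stands out as a result about the members.

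For 232 members WT day -1 replicate 2 was the highest of the 6 bud libraries, as for 19% of 20995 other IDs, and for 160 it was at least 10 times the highest of the other 5. Among all 18715 IDs at 1 CPM or more in that library, 429 were at least 10 times the highest of the other 5. Its level was set against the mean of tps1 day +1 for each member. The median was 11.0%, with the middle 50% of members from 5.58 to 18.1%, 10 members under 1% and 45 at 20% or more. The log2 ratio of WT day -1 replicate 2 to tps1 day +1 replicate 1 ran from -4.61 to -2.93 over the middle 50% of members, and from -0.71 to 0.38 over the middle 50% of the other IDs at 40 CPM or more in tps1 day +1. At one end, Peaxi162Scf00596g00075 had 1 count (0.0329 CPM) in WT day -1 replicate 2, and 167, 91.9 and 114 CPM in the tps1 day +1 replicates. At the other, Peaxi162Scf00359g01225 had 158 CPM there, and 225, 98.8 and 137 CPM in tps1 day +1, while the other 5 day -1 libraries held between 0 and 1.96 CPM. Both were chosen after their values were seen.

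The share reached in WT day -1 replicate 2 went with abundance in open flowers. In the 61 least abundant members by the tps1 day +1 mean (50.7 to 79.5 CPM) the median was 5.54%, in the next 61 it was 8.54%, in the next 61 it was 11.2%, and in the 61 most abundant (281 to 1318 CPM) it was 16.0%. Among the 28 members at 10 CPM or more in tps1 day -1 the median was 23.0%, against 9.80% among the 177 under 1 CPM. The 28 had RNA in every bud group, with a median of 23.1 CPM in tps1 day -1. In WT day -1 replicates 1, 2 and 3 their medians were 21.9, 41.3 and 23.2 CPM, against 0, 14.7 and 0.222 CPM for the 177. Part of the 23.0% is therefore a level that the other bud libraries shared. The 177 were split by this share into 3 lists of 59, with medians of 3.50, 9.80 and 19.0%. Their median log2 ratios of tps1 day +1 replicate 1 to replicate 2 were 0.91, 0.89 and 0.89. Medians of the log2 ratio of WT day +1 replicate 3 to tps1 day +1 replicate 1 were 0.22, 0.28 and 0.33. The rule used the first of these libraries. The second is also part of the mean by which the share was divided, so a rise with the share is partly built in. The lists differed in level too, with medians of 82.4, 149 and 258 CPM in the tps1 day +1 mean. Nothing is read from the order of the 3 ratios. The 95th percentile of the ratio between the tps1 replicates was 1.01, 1.00 and 1.19 in the same lists.

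A smaller trace of the same members stood in WT day -1 replicate 3. Among the 177 members under 1 CPM in tps1 day -1, its level was a median of 1.19% of that in replicate 2 (middle 50% from 0.822 to 2.58%). It was above WT day -1 replicate 1 for 146 of the 177, and above that library and all 3 tps1 day -1 libraries for 121, as for 49.8% and 23% of the 2660 other IDs under 1 CPM in tps1 day -1. At these levels single counts matter: in the list of 59 with the largest share, the median was 0.711 CPM in replicate 3 and 64.3 CPM in replicate 2.

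**Figure D4:**
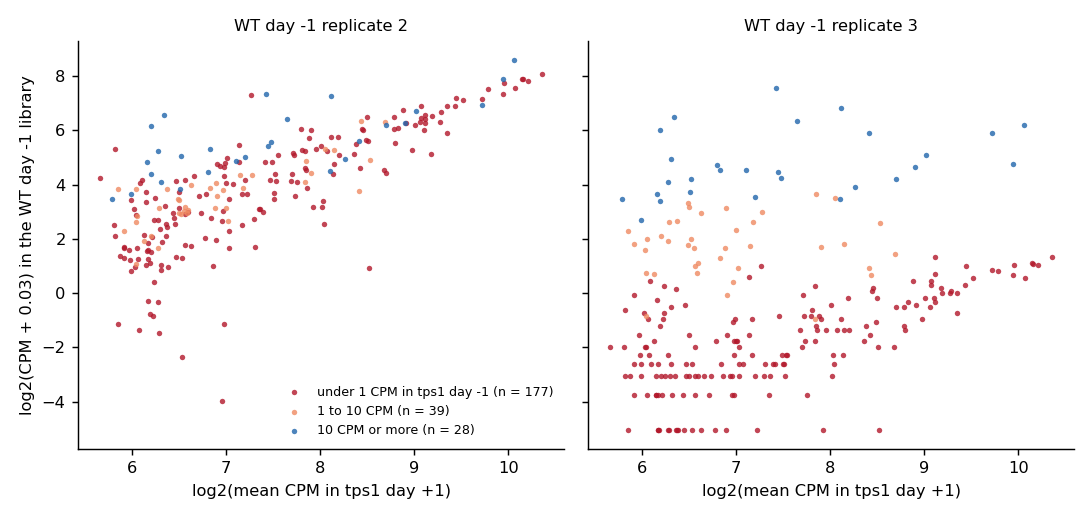
Level of each member in WT day -1 replicate 2 (left) and replicate 3 (right), as log2(CPM + 0.03), against its mean level in tps1 day +1, as log2 CPM, coloured by its mean level in tps1 day -1. On the left the median member stands at 16.6 CPM and the abundant members highest; on the right the 177 members under 1 CPM in tps1 day -1 lie along a similar line at a median of 1.19% of the level in replicate 2, and the 28 at 10 CPM or more stand above them.

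Comparisons that include the WT day +1 libraries are described only, because those libraries chose the members. In open flowers, tps1 pistils gave the members 5.73 ± 1.84% of their counts, and WT pistils 4.48 ± 4.50% (SD, n = 3 each). For 238 of the 244 members all 3 tps1 values lay inside the range of the 3 WT values. From high to low, the libraries ran WT replicate 3, tps1 replicates 1, 3 and 2, WT replicate 1 and WT replicate 2 for 235 members. The mean of tps1 was a median of 1.32 times the mean of WT, with members from 0.734 to 1.59 times. The groups were separate without overlap for 0 members in either direction, beside 10.5% of the 21239 IDs higher and 8.6% lower in tps1, and nothing is read from this 0, since choosing members for their spread in WT widens the WT range. Between days in WT, 206 members were higher at day +1 without overlap, beside 27.7% of the 21239 IDs, and 0 were lower, beside 40.3%. Leaving out WT day -1 replicate 2 gave 237 higher members, beside 31% of the IDs. WT day +1 replicate 2, the lowest open-flower library, was below WT day -1 replicate 2 for 37 members.

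By their IDs, the members lay on 178 of the 1961 scaffolds in the table, 134 of which held 1 member, and no scaffold held more than 5. The set held 16 pairs of members adjacent in the order of IDs on a scaffold, made of 30 members. How often other IDs form such pairs was not counted, so no clustering is read from this. In 7 of these pairs the mean levels in tps1 day +1 were within 1.5-fold of each other, and over the 16 pairs the higher level was from 1.06 to 6.64 times the lower. Peaxi162Scf00059g00069 and Peaxi162Scf00059g00068, one such pair named after its values were seen, averaged 692 and 651 CPM in tps1 day +1. Whether neighbours are near-identical copies that share reads cannot be seen from the IDs, so their separate values are uncertain.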

How the data were processed

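The authors deposited 1 table of raw read counts, as whole numbers, for 35812 IDs in each of 12 libraries. The submitters' processing notes name cutadapt, TopHat2 and HTSeq. The versions, build and strand setting were not given in the sources used here. Columns were matched to samples through the names in the sample descriptions. Total counts ran from 19576755 to 30357964 per library, and floors cover counting error only. CPM values use column totals.

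Tests used edgeR 4.0.16 in R 4.3.3: filterByExpr (minimum count 10), TMM scaling, a quasi-likelihood fit to the 6 libraries of the groups compared, and Benjamini-Hochberg adjustment over all IDs tested (threshold 0.05). The WT day +1 libraries were kept out of the fits because the rule used them. The SE is the log2 fold change divided by the square root of F, an approximation. With 200 changes planted in simulated data, 59% of 2-fold and 90% of 4-fold were recovered for the tps1 days (12 false among 161 calls). For the genotypes at day -1 it was 33% and 83% (6 among 122). Genes were drawn independently of each other. For the tps1 days the 200 were planted among 20624 genes, while 32.1% of IDs rose and 32.5% fell in the real test. The simulated rates may therefore not hold for that test. Alternatives used DESeq2 1.42.0 and limma 3.58.1 among others. By rule, the 2 most abundant called members were named. Any other ID, the 3 not called included, was picked with its values known. The members and lists were chosen with earlier results of these data known.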

Additional observations from a re-analysis of the deposited data

How the results depend on the processing

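The count of 241 members higher and 0 lower at day +1 in tps1, and of 0 members called between genotypes at day -1, were the same under every alternative run: 2 other scalings, 2 other filters, DESeq2, limma-voom, a fit to all 12 libraries, the replicate block, and leaving out each of the 6 libraries in turn. The fit to 12 libraries holds the WT day +1 libraries that chose the members, so it is not independent of the rule. Members near 0 at day -1 had to differ between days in any setting, so the steady 241 supports nothing more. Between genotypes, from 75 to 244 members were tested, depending on the setting. Between tps1 days, scaling by column totals alone moved the median of all IDs to -0.14 on the log2 scale, against 0.00390 with TMM. Same-numbered libraries did not deviate together (correlations across IDs of 0.0239, 0.0351 and -0.00762 between tps1 days, and 0.121, -0.178 and -0.37 between genotypes at day -1), and not every library correlated best with its own number, so the numbers were not taken as pairs. With the replicate block, 241 members were again called between tps1 days and 0 between genotypes, and the number of all IDs called between genotypes was 0 instead of 4.

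The median log2 fold change of members between genotypes at day -1 was -5.29 with no filter and -5.40 with all 12 libraries, where 244 members rather than 101 were tested. The 143 added had too few counts at day -1 for the filter, enter the 12-library fit through day +1, and stood under 1 CPM in every tps1 day -1 library. WT day -1 replicate 2 was the highest WT bud library in nearly all of them, and their fitted fold depends on it and on the prior count. With the filter and 1 library left out, the median over the 100 to 140 members tested ran from -2.38 to -0.08. The rule gave 371 members with a mean of at least 20 CPM and 149 with at least 80 CPM. The median log2 ratio of highest to lowest tps1 day +1 value ran from 0.32 to 0.89 with 1 library left out, lowest without replicate 1 and 0.56 without replicate 2. The summed level of the members was 42.3 times higher at day +1 in tps1, and 34.8 to 47.9 times with 1 library left out. Peaxi162Scf00080g01518, not called, changed sign with RLE scaling and DESeq2 (0.0039 in both) and ran from -0.21 to 0.17 with 1 library left out. Peaxi162Scf00861g00321, not called, was at -0.11 with column totals and ran from -0.18 to 0.25 with 1 library left out. Of all IDs between genotypes at day -1, DESeq2 called 82 and the fit to 12 libraries 39, against 4, and 2 were called with no filter, 2 with limma-voom and 0 to 2 with 1 library left out. Depth limits the bud levels, since 71 members had 3 or fewer counts over the tps1 day -1 libraries.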
